A study of Mus musculus with 3 samples.

Results

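Proteasome subunits and protein chaperones were followed as 1 set of genes between spleen RNA and a pooled reference RNA. Members were taken by name from the probe annotation: proteasome subunits and assembly factors (symbols beginning with Psma, Psmb, Psmc, Psmd, Psmf or Psmg and a digit), CCT chaperonin subunits, J proteins, heat shock proteins of several families, protein disulfide isomerases, and FKBP and cyclophilin prolyl isomerases. The rule uses names and no values, though it was written with earlier results of these data known, and it leaves out Hspa1l. The annotation lists 82 such genes on 153 probes, and 68 of them had at least 1 probe with a value on all 3 arrays (109 probes), out of 6077 genes measured that way. These 68 hold 4 genes of the 20S core, 16 of the 19S cap, the core assembly factor Psmg4 and 47 chaperone and folding genes.

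Each of the 3 arrays compared purchased mouse spleen total RNA, as cRNA in the red dye Cy5, with a purchased universal mouse reference RNA in the green dye Cy3, and the 3 arrays form 1 group. The reference is a commercial pool made from mouse cell lines, so it holds RNA of cultured cells. The labels name 1 product for each RNA and give neither the age, strain or number of the animals nor a dye swap. If the arrays repeat the same extracts they are 1 replicate of the comparison, and the p-values below then reflect technical spread alone. Dye and RNA source cannot be told apart. In such bulk RNA, fewer cells of a type and less RNA per cell cannot be told apart either. Values are the authors' signed log ratios, and neither their log base nor their direction is stated. Positive ratios were read as probably spleen-high, since spleen carried the red dye and red over green is the usual order, while the titles put the reference first. Marker genes were compared with this reading: 2 of 2 measured B cell genes, 2 of 2 macrophage genes, 2 of 2 erythroid genes and 2 of 3 T cell genes were positive and passed the test, the exception being Cd3d at -0.85, and 4 of 4 matrix genes were negative. Genes of another tissue, the exocrine pancreas, were positive too, 11 of 12 measured with a median of 4.16, against 3.72 for the B cell genes. The exactly 0 values, 24.2% to 26.8% of the probes of an array, were read as no measurement.

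The proteasome degrades proteins tagged with ubiquitin. Its 20S core is a barrel of stacked alpha and beta rings with the cutting sites inside the beta rings, and its 19S cap binds the tag, removes it, unfolds the substrate with a ring of ATPases and threads it into the barrel. Chaperones act before that step: HSP70 proteins bind unfolded stretches under the control of J proteins and exchange factors, the CCT ring encloses actin and tubulin, small heat shock proteins hold aggregating clients, and disulfide and prolyl isomerases speed slow folding steps, many of them in the endoplasmic reticulum (ER). In spleen, lymphocytes and macrophages use the proteasome to make peptides for MHC class I, and plasma cells depend on ER folding to secrete antibody.

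Negative ratios, the likely reference side, were more frequent than positive ones among these genes. With limma, which tested each gene's mean ratio against 0 over the 3 arrays (Benjamini-Hochberg adjusted p under 0.05 over all 6077 genes), 36 of the 68 members were negative and passed, 15 were positive and passed, and 17 did not pass. Among all genes tested, 37.1% were called negative, 33.2% positive and 70.3% either way, against 52.9% negative and 22.1% positive for the members. The members' median log ratio was -0.22, against -0.03 over all genes, and it was -0.23, -0.20 and -0.21 on arrays 1, 2 and 3. Few ratios were large: 5 of 68 members (7.35%) had a mean beyond 1 in either direction, against 14.2% of all genes. The median absolute ratio was not lower, at 0.39 for the members and 0.36 for all genes.

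A group of 6 members had a call under each of the 15 other settings tried: Fkbp11, Fkbp1b and Fkbp1a were negative, and Dnajb2, Dnajb9 and Hsph1 were positive. Dnajb2, Dnajb9, Hsph1 and Fkbp1b had 1 probe each, so no setting could measure the difference between probes for them. Limma's test against a 1.5-fold change (read in base 2) was 1 of the 15 settings, and only the 6 members above passed it. Among all genes 626 passed it as positive and 582 as negative. The other 45 calls of members are thus of ratios not shown to exceed that size. All of the 21 proteasome genes were among those without such a call. With no moderation of the variance 17 negative and 9 positive calls were left, 1 of them gained, and 26 ended: those of Dnaja3, Dnajb14, Dnajb3, Dnajb8, Dnajc10, Dnajc22, Dnajc5, Dnajc5b, Dnajc7, Dnajc9, Fkbp3, Hspb1, Hspb2, Hspb3, Pdia6, Ppia, Ppie, Psma2, Psmb5, Psmc2, Psmc3, Psmc5, Psmd10, Psmd5, Psmd9 and Psmg4.

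The core and cap medians were below the chaperone median, and the classes overlapped widely. The 20S core had a median log ratio of -0.39 with 3 of 4 genes negative and 0 positive, the 19S cap -0.34 with 10 of 16 negative and 2 positive, and the chaperones -0.18 with 22 of 47 negative and 13 positive. The gap between cap and chaperone medians (cap minus chaperone) was -0.25 on array 1, -0.21 on array 3 and -0.01 on array 2, so it rests on arrays 1 and 3. Core and cap had no settled order: cap minus core was 0.04 in the medians and 0.00 on array 3, the cap stood at -0.40 without its assembly factors, and the cap was lower with 0 kept (-0.25 against -0.15) and with a running median over 20 neighbouring probe numbers subtracted (-0.23 against -0.18). Core minus chaperone was -0.33, -0.12 and -0.21 on arrays 1 to 3. The core median came near the chaperone median with 0 kept and with a running median over 20 subtracted (values in the closing section). Chaperones ran from -1.29 to 1.11 and cap genes from -0.74 to 0.44, so the lowest single ratios lay among the chaperones. Such a range widens with the number of genes, here 47 and 16. The quartiles were -0.38 and 0.24 for the chaperones and -0.50 and 0.005 for the cap. The 14 negative and 2 positive calls among all 21 proteasome genes make 66.7% and 9.52%. For the chaperones the shares were 46.8% negative and 27.7% positive, nearer to the 37.1% and 33.2% of all genes.

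**Figure D1:**
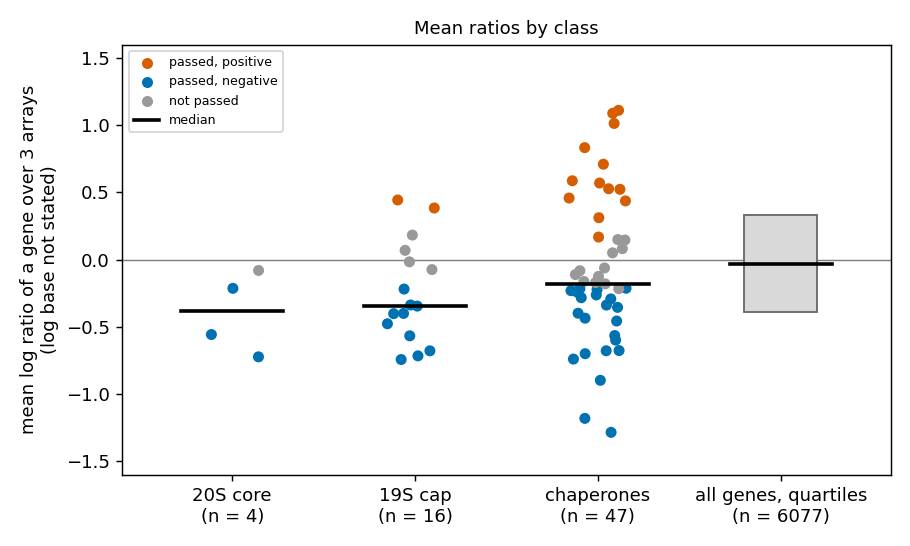
Mean log ratio of each member over 3 arrays (vertical axis, log base not stated) by class (horizontal axis), coloured by limma's call, with each class median as a black line and the quartiles and median of all 6077 genes as a grey box. The core and cap medians lie at -0.39 and -0.34, below the chaperone median of -0.18, and the chaperones spread from -1.29 to 1.11.

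In the 20S core, both measured constitutive catalytic subunits were negative. Psmb7, the beta subunit with trypsin-like activity, had log ratios of -0.69, -0.79 and -0.69 on arrays 1, 2 and 3 (mean -0.72 ± 0.057, SD, n = 3, limma adjusted p = 4.83e-05). Psmb5, with chymotrypsin-like activity, had -0.73, -0.37 and -0.57 (mean -0.56 ± 0.182, SD, n = 3, limma adjusted p = 0.000746). Array 2 was thus lowest for Psmb7 and highest for Psmb5, and neither gene came near 0 on an array. The alpha ring subunit Psma2 had -0.29, -0.15 and -0.20, a mean of -0.21 that passed with an adjusted p of 0.021. Psmb11, the catalytic subunit of thymic cortical epithelium, had -0.03, -0.24 and 0.03, and its mean of -0.08 did not pass (limma adjusted p = 0.367). The call of Psma2 ended without array 1 (adjusted p = 0.132) and without array 3 (0.0917), and with a running median over probes of neighbouring numbers subtracted, in the wide form of 20 on either side (-0.13, 0.0595). That of Psmb5 ended with the narrow form, over 5 on either side (-0.15, adjusted p = 0.12), and with no moderation (0.0647), and the wide form brought it to -0.23 (0.0116). Psmb11 passed in the narrow form, at -0.58 (adjusted p = 0.00548). The inducible subunits Psmb8, Psmb9 and Psmb10 and Psmb6, also constitutive and catalytic, are not among the named probes used here, so no exchange between constitutive and inducible subunits can be read from the core itself. Psmg4, a chaperone of core assembly, was negative with -0.53, -0.27 and -0.37 (mean -0.39 ± 0.13, SD, n = 3, limma adjusted p = 0.00241).

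All 4 measured ATPases of the cap were negative and passed, with a median of -0.62, beside 37.1% called negative among all genes. Psmc3 had -0.46, -0.91 and -0.77 on the 3 arrays (mean -0.72 ± 0.228, SD, n = 3, limma adjusted p = 0.000375). Psmc6 had -0.58, -0.70 and -0.76 (mean -0.68 ± 0.0919, SD, n = 3, limma adjusted p = 9.05e-05), and Psmc2 had -0.68, -0.37 and -0.65 (mean -0.57). Psmc5 stood apart within the group, with -0.78 and -0.56 on arrays 1 and 3 and -0.10 on array 2 (mean -0.48, adjusted p = 0.0106). Its call ended without array 1 (-0.33, adjusted p = 0.0678), with 0 kept as a value (0.162) and with either running median subtracted (-0.09 and -0.21, adjusted p = 0.385 and 0.0694). With no moderation Psmc2 (adjusted p = 0.057), Psmc3 (0.0626) and Psmc5 (0.187) did not pass, while Psmc6 did.

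The other subunits of the cap went both ways. Psmd8, a lid subunit, was lowest with -0.83, -0.64 and -0.76 (mean -0.74 ± 0.0936, SD, n = 3, limma adjusted p = 5.78e-05). Psmd7, the lid partner of the deubiquitinase Psmd14, was the highest with 0.36, 0.42 and 0.55 (mean 0.44 ± 0.0977, SD, n = 3, limma adjusted p = 0.000862). Psmd14 itself, which removes ubiquitin from substrates, lay on the opposite side with -0.46, -0.34 and -0.40 (mean -0.40, adjusted p = 0.00104). The members of this protein pair therefore had ratios of opposite sign on every array. The lid scaffold subunit Psmd12 had a mean of -0.40 and the large base scaffold Psmd1 -0.35, and both passed. For Psmd1 the ratio was -0.52 with a running median over 5 probe numbers subtracted. The other 4 subunits did not pass: Psmd13 with 0.18, 0.30 and 0.06 (mean 0.18, adjusted p = 0.0529, and 0.0321 with the arrays centred), the ubiquitin receptor Psmd4 (mean 0.07), Psmd6 (-0.02) and Psmd11 (-0.07). Psmd6 passed at -0.23 with a running median over 5 subtracted (adjusted p = 0.00847), and Psmd11 passed without moderation (0.0357) and at -0.19 with probes measured on at least 2 arrays (0.0487).

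Psmd5, Psmd9 and Psmd10 encode assembly chaperones that are absent from the finished particle, and their calls changed under several other settings. Psmd9 was positive with 0.49, 0.15 and 0.51 (mean 0.38, adjusted p = 0.00583), Psmd5 negative with -0.50, -0.12 and -0.39 (mean -0.34, adjusted p = 0.00959), and Psmd10, also known as gankyrin, negative with -0.07, -0.39 and -0.20 (mean -0.22, adjusted p = 0.0393). The 3 probes of Psmd9 had means of -0.34, 0.26 and 1.23. A further Psmd5 probe had 1.24 and 1.02 on arrays 2 and 3 and 0 on array 1, so that Psmd5 was 0.04 with probes measured on at least 2 arrays (adjusted p = 0.807) and 0.06 with 0 kept (0.887). Psmd5 also lost its call without array 1 (-0.26, adjusted p = 0.0718) and with either running median (-0.26 and -0.05, adjusted p = 0.132 and 0.518). Psmd9 was 0.20 and 0.18 under those first 2 settings and did not pass with a running median over 5 (0.23, adjusted p = 0.0766). The call of Psmd10 ended without array 2 (-0.13, adjusted p = 0.151), without array 3 (0.0754), with the arrays centred (0.0631), with 0 kept (-0.11, 0.166) and with a running median over 5 (-0.14, 0.0601). Without these 3 genes the cap had 8 negative and 1 positive call among 13 subunits and a median of -0.40.

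**Figure D2:**
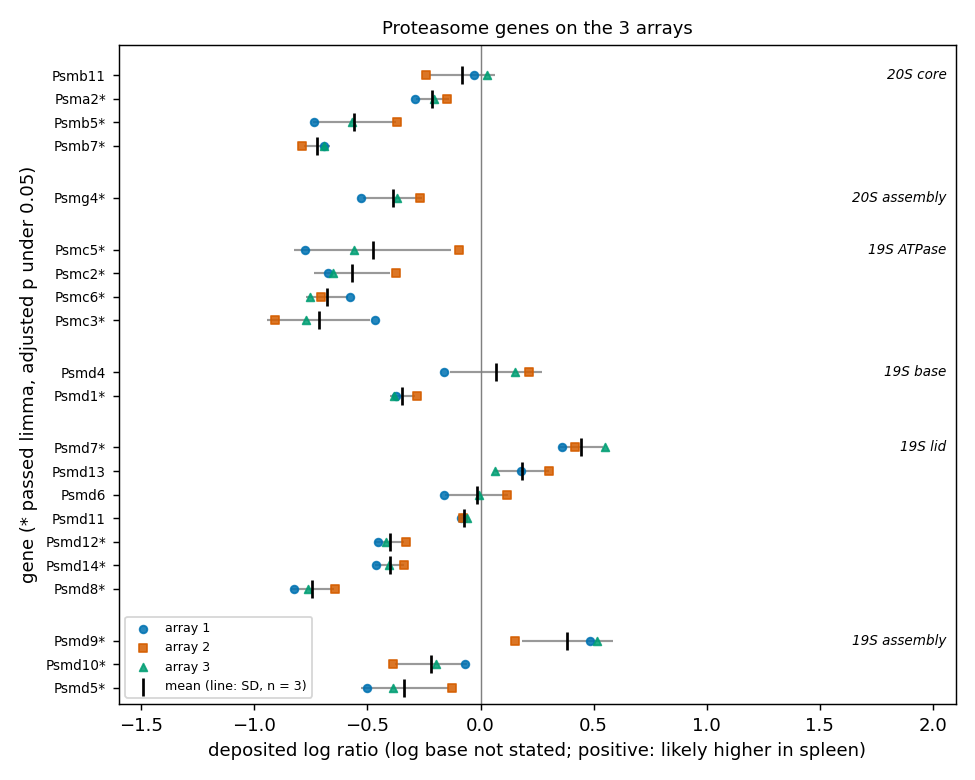
Log ratio (horizontal axis, log base not stated) of the 21 proteasome genes (vertical axis, grouped by part of the particle) on arrays 1 to 3, with the mean as a black tick and the SD as a grey line. The 4 ATPases lie below 0 on every array, and Psmd7 and Psmd9 are the genes that passed above 0.

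Array 2 often held the highest value of a proteasome gene. It did so for 10 of 16 cap genes (62.5%) and 13 of 21 proteasome genes (61.9%), against 38.3% of the chaperones and 37% of all genes. The cap median was -0.20 on array 2, against -0.41 and -0.39 on arrays 1 and 3. Without array 2 it was -0.41, with 9 genes negative, and the call of Psmd10, lowest on that array, ended. For genes highest on array 2, leaving it out could not show whether the negative calls rest on array 1 or 3. Without array 1 the negative calls of Psmd5 and Psmc5 ended, and without array 3 that of Psmd10 ended too.

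Genes around the proteasome that the name rule does not take were described from a list chosen with earlier results known. Of 22 genes for activators, maturation and delivery 4 were measured. The alpha and beta subunits of the 11S activator, which opens the core and is induced by interferon, were positive: Psme2 had 1.34, 1.03 and 1.31 (mean 1.23 ± 0.17, SD, n = 3) and Psme1 0.46, 0.67 and 0.65 (mean 0.59 ± 0.118, SD, n = 3). The core maturation factor Pomp had a mean of -0.21 (limma adjusted p = 0.033) and the cap deubiquitinase Uchl5 -0.19 (0.029). Of the 4 measured genes 2 were thus positive and 2 negative, beside 33.2% and 37.1% of all genes.

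FKBP prolyl isomerases, the binding proteins of the drugs FK506 and rapamycin, had the lowest median of the chaperone families, at -1.04. Of 4 measured genes 4 were negative, beside 37.1% called negative among all genes. Fkbp11, an ER member found in secretory cells, had -1.32, -1.36 and -1.18 (mean -1.29 ± 0.0979, SD, n = 3, limma adjusted p = 3.98e-06). That size is 2.44-fold if the base is 2 and 3.62-fold if the logs are natural. Both of its probes were negative on every array. Fkbp1b, which binds ryanodine receptor calcium channels, had -1.18, -1.37 and -0.99 (mean -1.18 ± 0.188, SD, n = 3, limma adjusted p = 1.73e-05). The closely related Fkbp1a, the main cellular target of FK506, had -0.83, -0.90 and -0.96 (mean -0.90 ± 0.0666, SD, n = 3, limma adjusted p = 1.77e-05). These 3 genes lay between the lowest 4.0% and the lowest 8.1% of all genes, and no array overlapped 0. The nuclear member Fkbp3 had -0.50, -0.23 and -0.47 (mean -0.40, adjusted p = 0.00262). It did not pass with 0 kept (adjusted p = 0.0514), and was -0.14 with a running median over 5 (0.0405).

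J proteins, which bring clients to HSP70 and trigger its ATP hydrolysis, were called positive in 10 of 28 cases (35.7%) and negative in 10 (35.7%), shares near those of all genes (33.2% and 37.1%), so these counts show nothing about the family. The highest was Dnajb2, a J protein with ubiquitin-binding motifs that passes clients to the proteasome, with 0.96, 1.14 and 1.23 (mean 1.11 ± 0.139, SD, n = 3, limma adjusted p = 1.28e-05). Next was Dnajb9, an ER partner of the HSP70 protein Hspa5, with 1.31, 0.96 and 1.00 (mean 1.09 ± 0.192, SD, n = 3, limma adjusted p = 2.74e-05). Dnajc7, which binds both HSP70 and HSP90, had 0.57, 1.05 and 0.88 (mean 0.83 ± 0.242, SD, n = 3, limma adjusted p = 0.000206). Its 5 probes agreed in sign, from 0.54 to 1.07, and its ratio was 0.37 with a running median over 5 (adjusted p = 0.0285). At the other end, Dnajc25 had -0.58, -0.81 and -0.84 (mean -0.74), Dnajb14, in the ER membrane, -0.60, -0.43 and -1.004 (mean -0.68), and Dnajc4 -0.70, -0.63 and -0.70 (mean -0.68). With a running median over 5 subtracted, Dnajc25 was -0.43 (adjusted p = 0.0128). Array 3 was the lowest for Dnajb14, whose call ended with 0 kept (adjusted p = 0.0669), with no moderation (0.0945) and with a running median over 5 (-0.16, 0.348), and which was -0.41 with one over 20 (0.025).

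Between these ends lay several J proteins with defined places of work. Dnajc21, a ribosome assembly factor, had a mean of -0.60 and Dnajc19, part of the mitochondrial import motor, -0.57, and both passed. The call of Dnajc21 ended with 0 kept (-0.46, adjusted p = 0.111). Positive and past the test were Dnaja4 (0.57), Dnajc5, a synaptic vesicle chaperone (0.52), and Dnajc9, a histone chaperone (0.46). Dnajc9 did not pass without array 1 (0.35, adjusted p = 0.052) or with 0 kept (0.26, 0.0681), and was 0.26 with a running median over 20 subtracted. Dnajc5 did not pass with 0 kept (adjusted p = 0.0563) or with a running median over 5 or 20 (0.17 and 0.14, 0.18 and 0.101). Dnaja4 was 0.00 with a running median over 5 because its own value was the median of its window on each array.

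The main cytosolic J proteins were near 0 and varied between arrays. Dnaja1 had -0.14, 0.26 and -0.30 (mean -0.06), Dnaja2 0.35, -0.29 and 0.19 (mean 0.08), and the heat-inducible Dnajb1 -0.20, 0.09 and -0.40 (mean -0.17). In all 3 the sign on array 2 was opposite to that on array 3, and none passed. Without array 2 each of them passed, Dnaja1 at -0.22 (limma adjusted p = 0.0387), Dnaja2 at 0.27 (0.0194) and Dnajb1 at -0.30 (0.014), as did Dnajb4 at -0.21 (0.0344) and the mitochondrial Dnajc30 at -0.31 (0.0192). Dnaja2 also passed at 0.27 with a running median over 20 (adjusted p = 0.0276), and Dnajb4 (-0.17, 0.0124) and Dnajc30 (-0.33, 0.0264) with one over 5. Dnajb6 (0.15) and the ribosome-bound Dnajc2 (-0.08) did not pass.

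Several J protein calls depended on which arrays were used or on other settings. Dnajc22 (mean -0.22) did not pass without array 1 (adjusted p = 0.0999), without array 2 (-0.12, 0.176), with the arrays centred (0.0715) or with 0 kept (0.186), and was -0.37 with a running median over 5 (0.00929). Dnaja3, a mitochondrial J protein, had a mean of -0.23 and did not pass without array 1 (adjusted p = 0.0732), without array 3 (0.147) or with a running median over 5 (-0.14, 0.0634). Of the testis genes, Dnajb3 had 0.99, 0.85 and 0.29 (mean 0.71, adjusted p = 0.00211), but did not pass with 0 kept (0.0924) or with no moderation (0.121), and was 0.40 with a running median over 5 (0.0318). Dnajb8 at 0.17 did not pass without array 1 (adjusted p = 0.181), without array 3 (0.235) or with a running median over 5 (0.03, 0.514). Dnajc5b at -0.26 did not pass without array 2 (-0.18, adjusted p = 0.0675) or with 0 kept (0.113), and Dnajb7 at -0.12 did not pass.

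Within the ER, chaperone genes were called in both directions. Of 9 ER chaperone genes 5 were called negative (55.6%) and 3 positive (33.3%), against 37.1% and 33.2% of all genes. Hspa5 did not pass, and the median of the 9 genes was -0.24. Hspa5, the ER member of the HSP70 family also called BiP, had -0.13, -0.31 and -0.10 (mean -0.18 ± 0.115, SD, n = 3, limma adjusted p = 0.0532), and passed at -0.39 with a running median over 5 or 20 probe numbers subtracted (0.00409 and 0.000637). Its soluble partner Dnajb11 was positive with 0.57, 0.58 and 0.60 (mean 0.59 ± 0.0158, SD, n = 3, limma adjusted p = 0.000117), and 0.29 with 0 kept, since 2 further probes were at 0. The membrane J protein Dnajc16 had a mean of 0.53 and Dnajc14 -0.46, both past the test. With a running median over 5 the call of Dnajc16 ended (0.06, adjusted p = 0.0868) and Dnajc14 was -0.15. Dnajc10, a disulfide reductase with a J domain, had -0.37, -0.22 and -0.14 (mean -0.24), its 2 probes lying at -0.54 and 0.05. Its call ended without array 1 (-0.18, adjusted p = 0.129), with 0 kept (0.082) and with no moderation (0.11), and it was -0.43 with a running median over 5 (0.00184). The protein disulfide isomerase Pdia6 had -0.46, -0.20 and -0.35 (mean -0.34, adjusted p = 0.00463), which did not pass with 0 kept (0.0537) or with a running median over 5 (-0.10, 0.0699).

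Secretory cell markers were positive beside these ER genes. Of 6 plasma cell markers 3 were measured and 3 were positive, from 0.44 for Xbp1 to 4.74 for Igha. Of 18 exocrine pancreas markers 12 were measured, 11 of them positive, with a range from -0.14 to 5.22 and a median of 4.16. Whether such cells had a part in the ratios of ER chaperones was not tested. Of 28 further ER folding genes 10 were measured, with 8 negative, 1 positive and 1 not past the test (median -0.35). The collagen chaperone Serpinh1 was lowest (-1.40), followed by the ER oxidase Ero1a (-1.15) and the ER degradation factor Sel1l (-0.75). Of 10 ER stress regulators 5 were measured, 4 negative and 1 positive, with Chac1 at -2.28, Ddit3 at -0.83 and the kinase Eif2ak3 at -0.69 against Xbp1 at 0.44. These 2 lists were chosen with earlier results known, and their counts stand beside 37.1% negative and 33.2% positive among all genes.

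Outside the ER, 2 of the 3 tested HSP70 and HSP110 genes were positive and passed, beside 33.2% of all genes. Hsph1, an HSP110 protein that releases ADP from HSP70, had 0.80, 1.14 and 1.10 (mean 1.01 ± 0.188, SD, n = 3, limma adjusted p = 3.73e-05), at the 92.6th percentile of the ratios of all genes. The distant relative Hspa12a had 0.22, 0.32 and 0.39 (mean 0.31, adjusted p = 0.00427). Hspa12b, known from endothelium, had 0.20 on array 1 and -0.25 and -0.28 on arrays 2 and 3 (mean -0.11). It did not pass on all 3 arrays, but did without array 1 (-0.27, adjusted p = 0.0376) and with a running median over 20 (-0.52, 0.00424). Hspa8, the constitutive cytosolic HSP70, had a value of 0.48 on arrays 1 and 2 from 1 of its 3 probes and 0 elsewhere, so it was not tested.

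All 4 measured small heat shock protein genes were negative, with a median of -0.32, beside 37.1% called negative among all genes. Hspb3 had -0.92, -0.39 and -0.79 (mean -0.70 ± 0.279, SD, n = 3, limma adjusted p = 0.0008), and Hspb2, which forms a complex with it in muscle, -0.35, -0.50 and -0.22 (mean -0.36, adjusted p = 0.00428). Hspb1, the stress-induced member, had -0.24, -0.40 and -0.24 (mean -0.29, adjusted p = 0.00629), and the testis gene Hspb9 had -0.36, -0.22 and -0.27 (mean -0.28, 0.00615). Neither Hspb2 (adjusted p = 0.0588) nor Hspb3 (0.0576) passed with 0 kept. With a running median over 5 subtracted, Hspb2 (-0.05, adjusted p = 0.368) and Hspb9 (-0.03, 0.346) did not pass and Hspb3 was -0.27. With one over 20, Hspb3 was -0.33, Hspb9 -0.17 and Hspb1 -0.56. Without array 1 the call of Hspb9 ended (-0.24, adjusted p = 0.052). Hspbap1, named for binding Hspb1, was positive with 0.44, 0.34 and 0.53 (mean 0.44, adjusted p = 0.000876), though 0.22 with 0 kept. With a running median over 5 Hspbap1 was 0.00 because, as for Dnaja4, its own value was the median of its window on each array.

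CCT subunits and cyclophilins had small ratios. Cct8 had -0.42, -0.49 and -0.40 (mean -0.44 ± 0.0498, SD, n = 3, limma adjusted p = 0.00063), with -0.29 and 0.0568 when 0 was kept. Cct4, of the same ring, had 0.11, 0.11 and -0.07 (mean 0.05, adjusted p = 0.533). Cyclophilin A, Ppia, whose many processed pseudogenes leave its probes uncertain, had -0.31, -0.10 and -0.27 (mean -0.22, adjusted p = 0.0237), and the spliceosomal Ppie -0.30, -0.19 and -0.15 (mean -0.21, adjusted p = 0.0216). The call of Ppia ended without array 1 (adjusted p = 0.14) and array 3 (0.122), with probes on at least 2 arrays (0.0513), with 0 kept (-0.14, 0.0819) and with a running median over 20 (-0.09, 0.121), and its sign turned with one over 5 (0.07, 0.0668). The call of Ppie ended without array 1 (adjusted p = 0.138) and array 3 (0.0581). Ppih, also spliceosomal, had 0.20, -0.01 and 0.25, a mean of 0.15 that did not pass, but passed without array 2 (0.22, adjusted p = 0.0279).

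**Figure D3:**
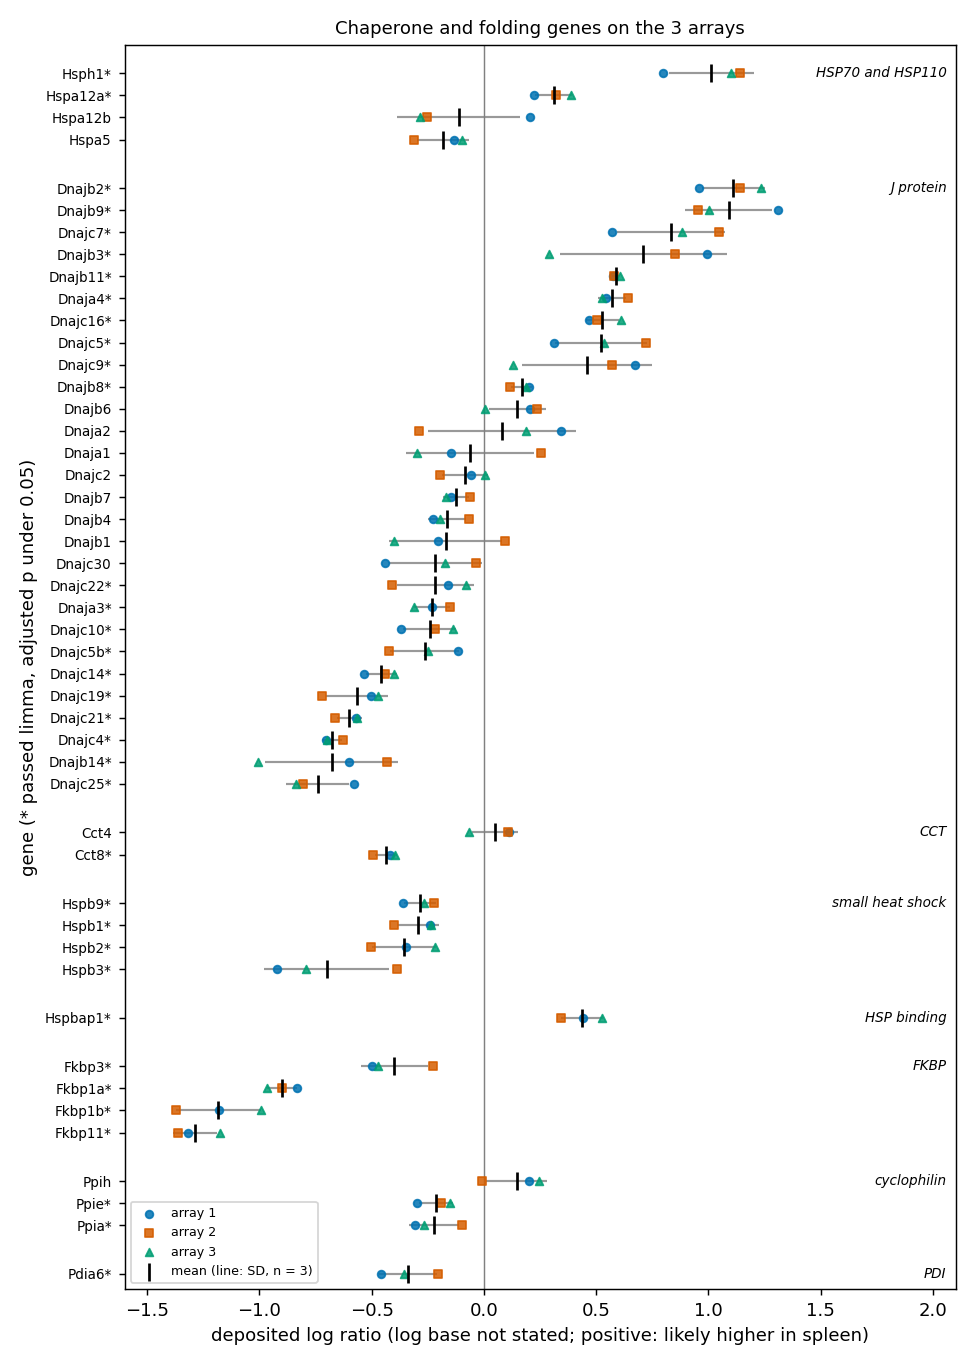
Log ratio (horizontal axis, log base not stated) of the 47 chaperone and folding genes (vertical axis, by family) on arrays 1 to 3, with means as black ticks and SDs as grey lines. FKBP and small heat shock genes lie below 0 on every array, while J proteins run from -0.74 to 1.11.

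The measured partners of the chaperones outside the name rule were mostly negative. Of 24 genes for HSP90 and its cofactors 11 were measured, with 8 negative, 1 positive and 2 not past the test (median -0.54). The exchange factor Bag3 had a mean of -1.36, the mitochondrial HSP90 Trap1 -1.14 and Bag2 -0.94. Of 14 prefoldin and CCT partner genes 5 were measured and 5 were negative, led by the tubulin cofactor Tbcb (-1.10), Pfdn1 (-0.56) and Pfdn4 (-0.31). Of 14 genes for folding and proteolysis in mitochondria 6 were measured, with 4 negative and 2 not past the test, Phb at -0.38, Phb2 at -0.34 and the HSP70 exchange factor Grpel2 at -0.24 among them. These lists too were chosen with earlier results known, and their counts stand beside 37.1% negative among all genes.

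Probes of 1 gene often gave different ratios. Of 21 members with over 1 measured probe, 5 had probe means of both signs: Psmd9, Dnaja1, Dnaja3, Dnajc10 and Cct4. The median SD over the probes of a gene was 0.217, against a median SD of a member over the arrays of 0.127. Probes of the same transcript differed too, since 4 probes of Dnaja1 that share 1 accession had means from -0.52 to 0.28, 2 such probes of Psmc3 -0.89 and -0.54, and 2 of Psmb7 -1.08 and -0.87. For Psmd12, with 7 probes, the means ran from -0.67 to -0.07, and each was negative. Where a gene had 1 probe, this part of the error was not measured.

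**Figure D4:**
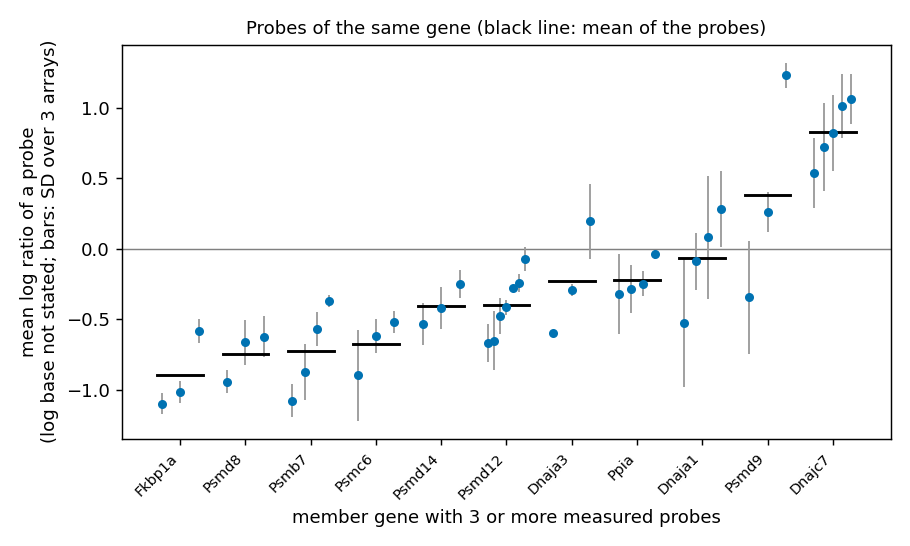
Mean log ratio (vertical axis, log base not stated) of each probe of the 11 members with 3 or more measured probes (horizontal axis), with SD over 3 arrays as bars and the gene's mean as a black line. Probes of Psmd12 lie between -0.67 and -0.07, and those of Psmd9 between -0.34 and 1.23.

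The 14 members with no probe measured on all 3 arrays were not tested. Among them 3 had values on 2 arrays. Pdia5, a protein disulfide isomerase, had -1.02 and -0.87 on arrays 1 and 3, the cyclophilin Ppid -0.57 and -0.55 on arrays 1 and 2 from 1 of its probes, and Hspa8 is given above. Another 9 had a value on 1 array: the mitochondrial HSP70 Hspa9 had -1.07 and the ER prolyl isomerase Fkbp9 -1.80, each on array 1, and the others were Cct2, Fkbp4, Hspbp1, Dnajc1, Dnajc6, Dnajc15 and Psma8. Psma3 and Cct7 were at 0 on each array.

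Promoters were searched for 3 motifs known from the control of these genes, to show which members carry them. The windows were the 250 bases before each gene start in the RefSeq table of build GRCm38.p6, which holds 83 windows of 67 of the 82 members (20 of proteasome genes, 63 of chaperone genes) among 32851 in all. The ER stress element, CCAAT and CCACG with 9 bases between them, occurred in 2 chaperone windows and 0 proteasome windows, and in 0.113% of all windows. The short heat shock element GAANNTTC, which reads the same on both strands, occurred in 14.3% of chaperone windows, 5.0% of proteasome windows and 6.69% of all. The extended form with a further GAA unit lies over the short one and was found in Dnajb6 alone. The antioxidant response core TGACNNNGC, on either strand, occurred in 12 of 63 chaperone windows, 4 of 20 proteasome windows and 10.2% of all. A match of letters is a description and not evidence of binding.

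The 4 stretches given first show members that share a motif, in capitals, with their ratios beside them, 5′ to 3′ on the gene's strand. Hspa5 (chr2:34772010-34772063, plus strand) and Pdia6 (chr12:17266476-17266529, plus strand) hold the ER stress element. Hspb1 (chr5:135887790-135887844, plus strand) and Dnaja4 (chr9:54699457-54699529, plus strand) each hold the short heat shock element at 2 places.
Hspa5: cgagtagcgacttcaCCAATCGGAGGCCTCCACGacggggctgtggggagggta
Pdia6: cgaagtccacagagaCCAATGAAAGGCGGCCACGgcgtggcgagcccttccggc
Hspb1: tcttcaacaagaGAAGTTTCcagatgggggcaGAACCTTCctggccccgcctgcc
Dnaja4: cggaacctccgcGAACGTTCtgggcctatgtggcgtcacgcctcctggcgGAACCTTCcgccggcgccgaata
Hspa5 and Pdia6 had mean ratios of -0.18 and -0.34, while Dnajb9 and Dnajb11, whose windows held no match to this spelling, had 1.09 and 0.59. Hspb1 and Dnaja4 were on opposite sides of 0, at -0.29 and 0.57.

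The 3 stretches with the antioxidant response core in capitals come from genes with negative ratios: Psmb5 (chr14:54618009-54618067, minus strand), Psmc6 (chr14:45329577-45329630, plus strand) and Fkbp1b (chr12:4841647-4841705, minus strand), the last 2 with the core on the opposite strand.
Psmb5: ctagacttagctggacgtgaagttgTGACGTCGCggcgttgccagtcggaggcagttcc
Psmc6: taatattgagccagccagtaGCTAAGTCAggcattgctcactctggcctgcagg
Fkbp1b: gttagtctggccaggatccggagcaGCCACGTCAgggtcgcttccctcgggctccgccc
Among proteasome genes with a match, Psmb5 (-0.56), Psmc6 (-0.68) and Psmd12 (-0.40) were negative and Psmd9 (0.38) was positive. Chaperone genes with a match included Hsph1 (1.01) and Dnajb2 (1.11) as well as Fkbp1b (-1.18), so the motif was found on both sides of 0.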

How the data were processed

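The 3 two-colour arrays, which form 1 group, compared spleen RNA with a reference RNA. The authors deposited a table with 1 signed log ratio, or log fold, per probe and array. How the arrays were corrected, normalized and centred, and the log base and direction, is not given in the sources used here. Values were tested as deposited, and only the fold test assumes base 2. An exact 0 was read as no measurement, which left 11086 of 16273 probes. Since no intensities were analysed here, signal over background is unknown, and the number of arrays limits the precision.

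Probes were named where GEO's platform annotation gave 1 symbol. Probes measured on all 3 arrays were averaged per gene, and limma 3.58.1 (R 4.3.3) fitted an intercept to each of the 6077 genes. Its moderated two-sided test was adjusted by Benjamini-Hochberg, with 0.05 as the threshold, and was tested on simulated data. Called means past this test. The other settings were array centring, scaling and quantile normalization, moderation without or with robust estimates, a stricter threshold of 0.01, limma's test for changes beyond 1.5-fold, probes on at least 2 arrays, the median of probes, 0 kept as a value, subtraction of a running median whose window reached 5 or 20 probe numbers to each side, and leaving out each array. A running median includes the probe's own value, so it can remove a real ratio.

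The members and all gene lists were chosen with earlier results of these data known. Every member could be named. Values on each array were given for the 3 highest and 3 lowest of each class and for chosen members, and of each further list the 3 genes with the largest absolute mean were named. Promoter windows come from RefSeq, build GRCm38.p6, and matplotlib 3.10.9 (Python 3.11.15) drew the figures.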

Additional observations from a re-analysis of the deposited data

How the results depend on the processing

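No paired analysis was possible because the samples form 1 group. Calls of all 68 members were as reported with scaled arrays, quantile normalization, robust moderation and the median of the probes. With no moderation of the variance the members had 9 positive and 17 negative calls (core 1 negative, cap 1 and 6, chaperones 8 and 10). In limma's test against a 1.5-fold change 3 and 3 were left, all in chaperones, with 0 in core and cap, where 1 of 4 and 1 of 16 genes had an unadjusted p under 0.05. With 0 kept, negative calls were 23 for all members and 12 for chaperones, and the medians were -0.15 for the core and -0.11 for chaperones. With a running median over 5 probe numbers subtracted, positive calls were 9 for all members, 1 for the cap and 8 for chaperones, and the median ratio of the chaperone class was -0.060. With one over 20 the medians were -0.18 (core), -0.23 (cap) and -0.17 (chaperones). With the arrays centred the chaperone median was -0.15. Psmd5 was 0.044 with probes on at least 2 arrays and 0.060 with 0 kept, and Ppia 0.070 with a running median over 5. Leaving out 1 array gave 13 to 17 positive and 28 to 37 negative calls, and chaperone medians from -0.21 to -0.17. The causes were not tested, except that a stricter null lowers counts by construction. Signal over background is unknown, so a depth limit cannot be given.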
